A study of Danio rerio with 18 samples.

Results

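The livers of AB males were compared with the livers of AB females. The comparison took in every array that the labels assign to strain AB, 3 males and 3 females, which are 6 of the 18 arrays of the series. The study profiled baseline liver mRNA of zebrafish (*Danio rerio*) on one-color Agilent arrays, with 1 fish on each array and 3 fish of each sex from AB, Tuebingen (TU) and WIK, all common laboratory strains. All fish were untreated adults aged 12 to 18 months by the labels, bred in the same facility from embryos of a stock center, and each was sexed by eye from eggs or testes at dissection. AB livers were taken in the morning, whereas TU and WIK livers were taken in the afternoon. AB male 1 and AB female 1 shared a slide and a scan, as did the fish numbered 2 and the fish numbered 3, so each slide held 1 male and 1 female of the strain. Signals are given as log2 of the background-corrected and quantile-normalized spot brightness, where values near 6 lie at the array floor, and differences are male minus female.

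In egg-laying fish the liver of the mature female makes yolk. Estradiol from the ovary binds the estrogen receptor of the hepatocyte, which switches on the vitellogenin genes, and the vitellogenins are translated on the rough endoplasmic reticulum (ER), folded, loaded with lipid, passed through the Golgi and secreted into the blood for uptake by oocytes. The liver of either sex also makes plasma proteins, lipids and glucose, and it detoxifies steroids and foreign compounds.

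Of the 43603 probes, 19436 were well above background on all 6 AB arrays and 12663 on no AB array. Between 57.9% and 60.9% of the spots of a male array and between 51.5% and 55.6% of the spots of a female array were well above background, and no spot was saturated. The liver label was met by the hepatocyte markers, of which 13 of 16 were measured, with *fabp10a*, the liver fatty acid-binding protein, at 17.74, 18.37 and 18.32 in AB males and 17.31, 18.13 and 17.90 in AB females. Of 33 oocyte markers 31 had a probe and 12 were measured, and of 29 testis markers 23 had a probe and 6 were measured. Of the 12 and the 6, 1 each passed the test described below, 8.33% toward females and 16.7% toward males. Over all measured genes these shares were 2.54% and 2.16%. The oocyte marker *zp3b* read 6.01, 6.23 and 6.25 in AB males and 7.32, 7.15 and 7.32 in AB females (q = 0.0114). The testis marker *spag6* read 8.24, 7.42 and 7.85 in AB males and was below background in all AB females (q = 0.0233). RNA of other cells was present, and some marker sets moved with sex while others did not. The summed signal of 27 exocrine pancreas markers lay between 14.45 and 15.61 in AB males and between 16.22 and 17.83 in AB females, and that of 20 erythrocyte markers lay between 17.14 and 17.78 in AB males and between 15.18 and 16.05 in AB females. The hepatocyte sum was also higher in all males, at 20.78 to 21.33 against 20.19 to 20.27, as were the endothelium and lymphocyte sums. Of the 6 measured lymphocyte markers, however, only 2 had higher means in males and 4 had higher means in females, with a median difference of -0.02. Sums of skeletal muscle, intestine, bile duct and stellate, myeloid and adipocyte markers overlapped between the sexes. In bulk tissue, fewer cells of a type and less RNA per cell cannot be told apart.

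Each AB male stood apart in its own way. Arrays correlated at 0.971 to 0.982 between females and at 0.934 to 0.963 between males, and AB male 3 had the lowest values, 0.934 and 0.943 with the other males. AB male 1 held 251 probes at least 4-fold above both other males, and its leading genes encode the heart muscle contractile apparatus. *myl7*, a heart myosin light chain, read 16.93 in AB male 1 and 5.92 and 5.86 in AB males 2 and 3. *tnnt2a*, cardiac troponin T, read 14.42, 6.0 and 5.96 in AB males 1, 2 and 3. The signal of the heart genes was thus at the floor in all but 1 fish. AB male 2 held 90 probes at least 4-fold above both other males, and 45 of these were probes called higher in females. AB male 3 held 196 probes above and 250 probes below both other males by the same margin. In AB male 3 *pck1*, the gluconeogenic enzyme phosphoenolpyruvate carboxykinase, read 14.28, against 10.10 and 7.05 in AB males 1 and 2 at the same probe. *pklr*, the liver pyruvate kinase of glycolysis, read 8.25 in AB male 3 and 12.43 and 12.84 in AB males 1 and 2 at 1 of its probes, whereas its brightest probe read 16.34 in AB male 3 and 17.16 and 16.89 in AB males 1 and 2. No AB female had more than 38 probes above both other females by this margin. These genes were chosen after their values were seen, and counts of the main lists below are therefore also given without AB male 3.

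**Figure D1:**
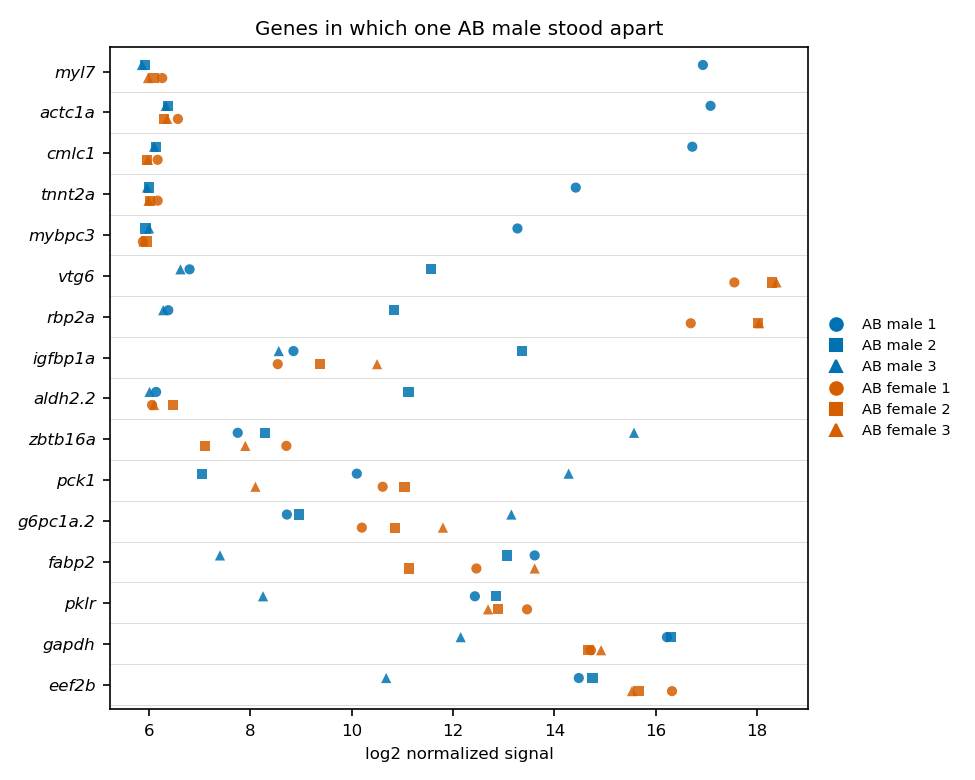
Log2 normalized signal (x axis) of genes in which 1 AB male stood apart, with AB males in blue above AB females in orange and the marker shape giving the fish number. Heart muscle genes are high in AB male 1 alone, *vtg6*, *rbp2a*, *igfbp1a* and *aldh2.2* are higher in AB male 2 than in the other males, and AB male 3 is high for *zbtb16a* and *pck1* and low at the plotted probes of *fabp2*, *pklr* and *gapdh*.

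Mean expression differed between the sexes for 908 probes, with a q-value (the Benjamini-Hochberg adjusted p-value of limma over all probes) of at most 0.05 and a difference of at least 2-fold. They were 2.08% of all probes. Males had the higher mean for 395 of them, or 0.906% of all probes, and females for 513, or 1.18%. The called probes stood for 683 array accessions and 535 named genes, and 154 of them carry no gene name here. The number depended on the fit and rested on few fish. With slide as a block 314 probes (0.72%) were called, 110 toward males (0.252%) and 204 toward females (0.468%). Of these, 248 were among the 908. The block spends degrees of freedom on the slides, which leaves fewer to estimate the error. Unadjusted limma p-values under 0.05 were more frequent with the block, at 8116 probes against 7660 without it. These counts cover all probes, and why a given call was lost under the block was not tested. Without AB male 3 the number of called probes was 1197 (2.75%), with 616 toward males (1.41%) and 581 toward females (1.33%). Without AB female 2 it was 192, and without AB female 1, AB male 1, AB female 3 or AB male 2 it was 363, 367, 457 or 485. Median scaling of the arrays turned the balance of directions round, with 366 probes toward males and 201 toward females, and the scanner's processed signal gave 441 and 415. A total of 139 probes was called in every fit that left out 1 fish.

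**Figure D2:**
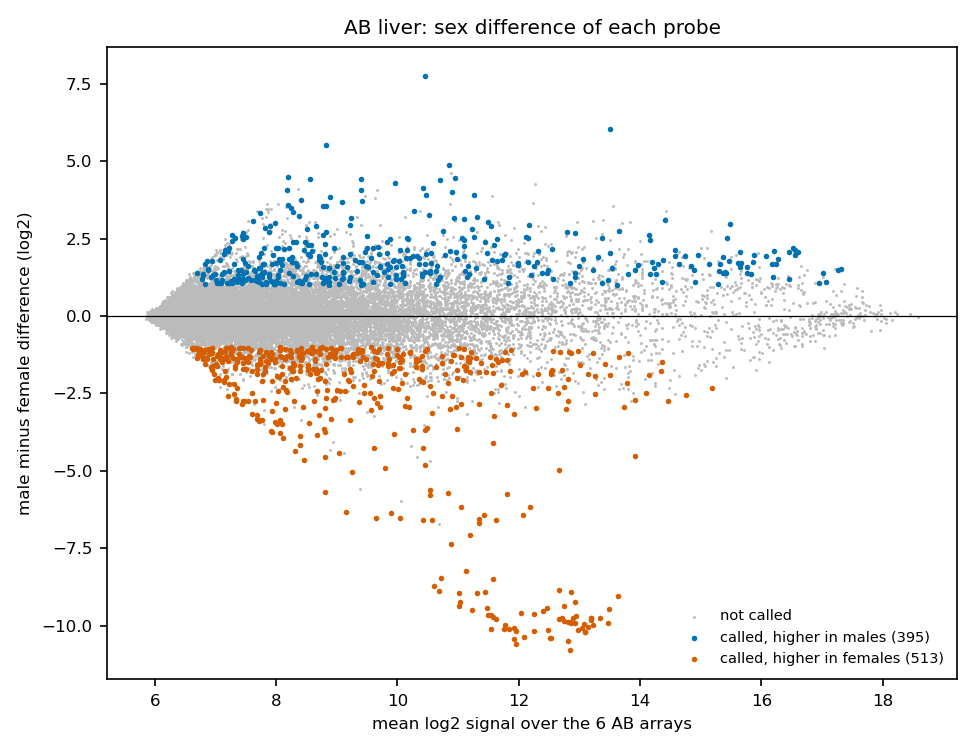
Male minus female difference (y axis, log2) against mean log2 signal over the 6 AB arrays (x axis) for each probe; blue points are the 395 probes called higher in males, orange points the 513 called higher in females, and grey points were not called. The group of orange points below -8 at mean signals of 10 to 14 includes the vitellogenin, *nots* and *rbp2a* probes.

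To describe pathways, each gene was read at its brightest probe and counted as measured where 3 or more of the 6 AB arrays showed that probe well above background. A gene well above background in 1 sex only could thus count as measured. Examples among the called genes are *spag6*, *tmed1a*, *agpat4*, *cyp2k6* and *ugt1b7*. Of 9730 measured named genes 457 were called (4.7%), 210 of them higher in males (2.16%) and 247 higher in females (2.54%), with a median difference of 0 over all. Under the slide block 151 were called (1.55%), 59 toward males (0.606%) and 92 toward females (0.946%). Without AB male 3 the number was 561 (5.77%), with 292 toward males (3.0%) and 269 toward females (2.76%), and without AB female 2 the counts were 37 and 62. List shares and counts given below stand against the shares over all measured genes in the same fit. Those without AB female 2 stand against that smaller background. All called differences had groups that did not overlap, but this holds for many genes, since 18.0% of measured genes had every male above every female and 17.7% had every female above every male.

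**Figure D3:**
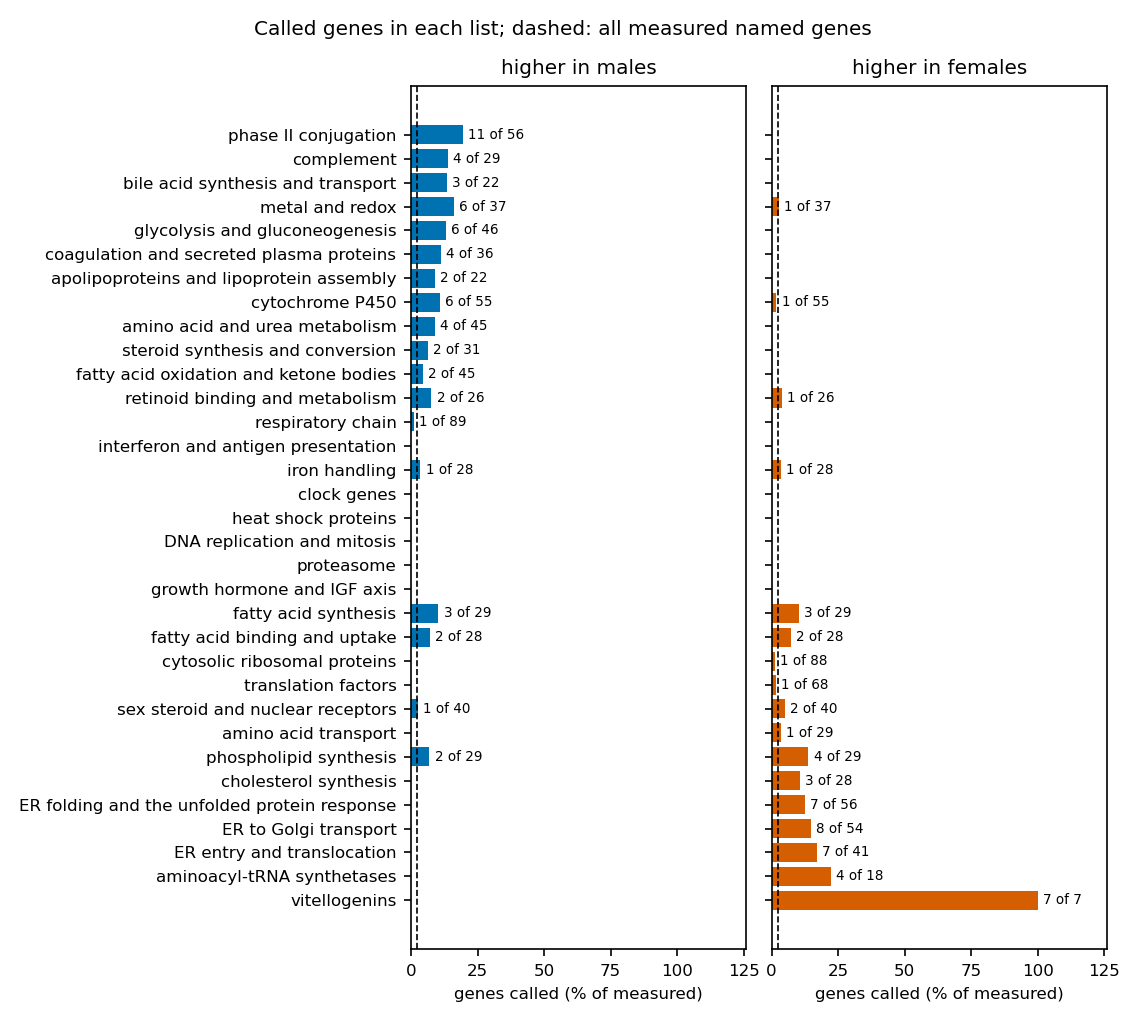
Percent of the measured genes of each list that were called higher in males (left, blue) and higher in females (right, orange), with the number of genes beside each bar and the share over all 9730 measured named genes as a dashed line. Lists of the secretory pathway and of aminoacyl-tRNA synthetases have bars on the female side only, and lists of conjugation, carbohydrate and plasma protein genes have bars on the male side only.

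The yolk precursors were the most different genes. All 7 measured vitellogenins were higher in females, with a median of -9.94 and differences of -10.50 to -9.05 at the brightest probes. *vtg1* read 6.85, 10.66 and 6.49 in AB males and 18.03, 18.34 and 18.24 in AB females (8.0 ± 2.31 against 18.20 ± 0.16, SD, n = 3 each), a difference of -10.20 ± 1.14 (SE) with a q-value of 0.0191. *vtg3*, the member with a shortened yolk protein, read 5.87, 8.09 and 6.18 in AB males and 15.62, 16.90 and 17.05 in AB females (q = 0.00697). In each of these genes AB male 2 lay between the other males and the females. All probes of *vtg1*, *vtg2*, *vtg5*, *vtg6* and *vtg7* were called, but 1 probe each of *vtg3* and *vtg4* was not. The second *vtg3* probe differed by -5.60 (q = 0.143), with 8.77, 13.82 and 13.97 in AB females. The uncalled *vtg4* probe differed by -6.71 (q = 0.341), with 17.12, 17.57 and 7.42 in AB females. Vitellogenin genes are similar in sequence, so that a probe may read several of them. With slide as a block only 2 of the 7 kept a q-value of at most 0.05, and the values for *vtg1* and *vtg3* were 0.0628 and 0.0445. Without AB female 2, 1 of the 7 was called. The 3 differences within slides were -11.18, -7.68 and -11.75 for *vtg1*, in pair order, so the fish numbered 2 gave the smallest.

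Some probes named for genes other than vitellogenins also read higher in AB male 2 than in the other males, by differing amounts. *rbp2a*, a cellular retinol-binding protein, read 6.38, 10.83 and 6.28 in AB males and 16.69, 18.01 and 18.04 in AB females (q = 0.0302). A second *rbp2a* probe differed by -0.10 only. *crebbpa*, a histone acetyltransferase, and *supt3h*, a subunit of a transcription coactivator, differed by -7.37 and -7.09, with AB male 2 at 8.64 and 9.41, whereas the other probe of each gene differed by -0.21 and -0.26. The names of *rbp2a* and *crebbpa* rest on the study's own probe annotation, and for these 3 genes the probe, not the gene, is what was shown to differ. *nots*, an aspartic protease known from the female fish liver, was lower in males at both of its probes and read 6.34, 7.90 and 6.69 in AB males and 16.32, 15.54 and 15.82 in AB females (q = 0.00232).

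Among steroid and nuclear receptors, 1 of 40 measured genes was called toward males (2.5%) and 2 toward females (5.0%). Over all measured genes the shares were 2.16% and 2.54%, so these counts are near the background. *esr1*, the estrogen receptor through which vitellogenin is induced, read 6.62, 6.95 and 6.57 in AB males and 12.86, 13.51 and 12.85 in AB females (6.71 ± 0.21 against 13.07 ± 0.38, q = 0.00101). AB male 2 was the highest male here too, but it stayed close to the other males, unlike in the vitellogenins. *raraa*, a retinoic acid receptor, read 6.69, 6.73 and 6.69 in AB males and 8.48, 8.43 and 8.57 in AB females (q = 0.00111), although its second probe differed by -0.12. Both receptors kept their calls with slide as a block (q = 0.0284 and 0.0432) and in every fit without 1 fish. The other estrogen receptors and the androgen receptor did not pass the test. *esr2a* differed by -0.11 (SE 0.27), *esr2b* by -0.47 (SE 0.22) and *ar* by 0.64 (SE 0.69), and *ar* was highest in AB male 3, at 12.76, against 10.81 and 10.26 in AB males 1 and 2.

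Some transcripts were well above background in one sex only. A set of 121 probes was well above background on all 3 female arrays and on no male array, and 32 of these were called. Another 767 probes were so on all 3 male arrays and on no female array, and 20 of these were called. Over all probes 2.08% were called. Each male array had more spots well above background (57.9% to 60.9%) than any female array (51.5% to 55.6%). The size of either set is therefore not a count of transcripts limited to that sex. The next genes were picked from the called probes of both sets after their values were seen. *fam20cl*, of a family whose mammalian members phosphorylate secreted proteins, read 5.85, 5.99 and 6.09 in AB males and 12.26, 12.28 and 12.42 in AB females, at least 76.8-fold lower in males (q = 8.9e-05), where the bound sets the female mean against the lowest detectable signal of each male array. *tmed1a*, a cargo receptor between ER and Golgi, read 6.10, 6.01 and 6.07 in AB males and 9.82, 9.81 and 9.85 in AB females, at least 13.6-fold lower in males (q = 8.9e-05). That no male value of either gene came near a female value follows in part from the way these genes were picked. *aanat1*, an arylalkylamine acetyltransferase, and *eevs*, an enzyme that zebrafish use to make the sunscreen compound gadusol, were at least 13-fold and at least 48.6-fold lower in males (q = 0.0057 and 0.00909). With slide as a block *fam20cl*, *tmed1a* and *aanat1* kept q-values of 0.013, 0.0284 and 0.0483, and *eevs* lost its call (q = 0.0517). On the male side, *grik1a*, a glutamate receptor subunit, read 10.70, 10.57 and 9.37 in AB males and was below background in all AB females, at least 16.7-fold higher in males (q = 0.0114). *cldn11a*, a tight junction claudin, read 8.44, 8.60 and 8.44 in AB males and 6.04, 6.05 and 6.10 in AB females (q = 0.00071). Under the slide block *cldn11a* kept its call (q = 0.0386) and *grik1a* did not (q = 0.0505).

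**Figure D4:**
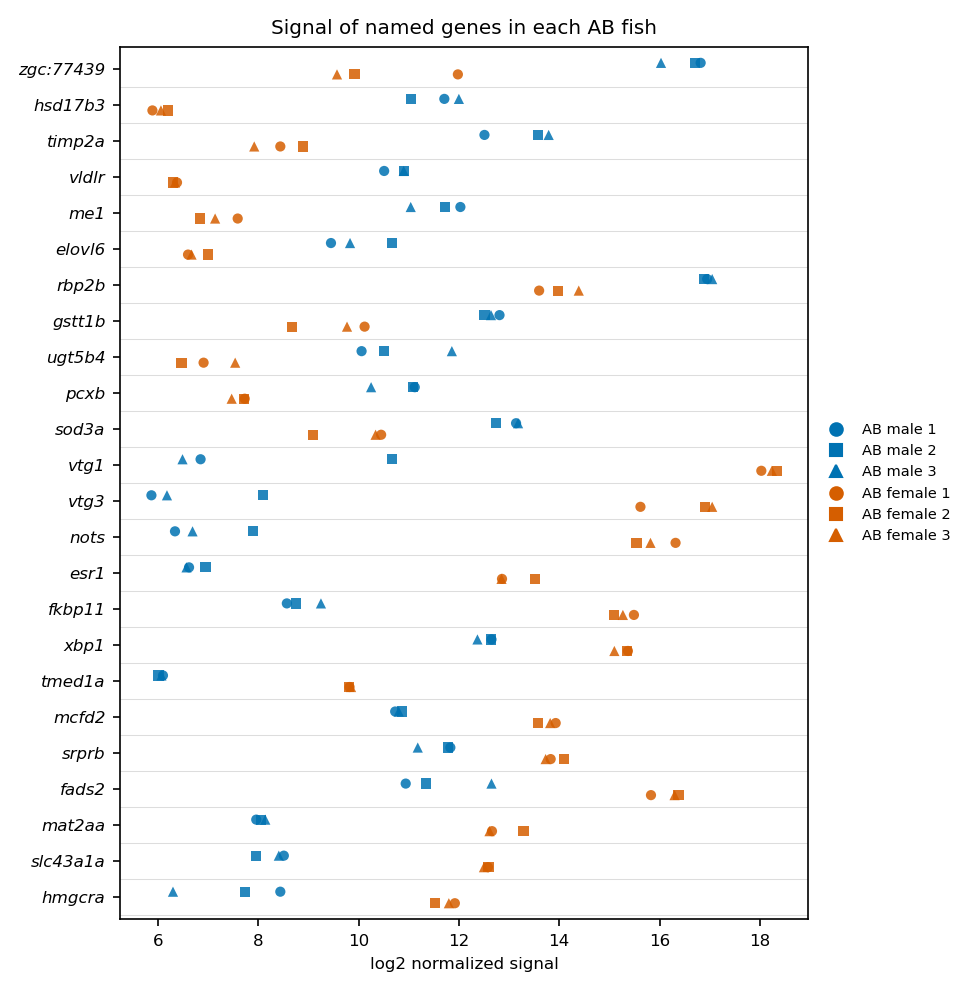
Log2 normalized signal (x axis) of 24 named genes in each fish at the brightest probe, with AB males in blue above AB females in orange and the marker shape giving the fish number. The upper 11 genes are higher in all 3 males and the lower 13 in all 3 females. AB male 2 lies apart from the other males for *vtg1* and *vtg3* and close to them for *esr1*.

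Genes of the secretory pathway were lower in males as a group. Of 41 measured genes for entry into the ER, 37 had lower means in males, 7 were called higher in females (17.1%) and none higher in males, with a median of -0.94. For ER folding and the unfolded protein response the numbers were 7 of 56 (12.5%) with a median of -0.36 and 42 of 56 means lower in males. For transport between ER and Golgi they were 8 of 54 (14.8%) with a median of -0.67 and 51 of 54 means lower in males. The direction was not particular to secretion. Means were lower in males for 59 of 68 translation factors, with a median of -0.72, and for 46 of 54 proteasome genes, with a median of -0.37. The secretory lists were chosen with ER genes already known to stand out in these samples, so their direction is not independent evidence. Under the slide block the counts were 3, 3 and 4, without AB male 3 they were 13, 8 and 8, with 1 ER entry gene toward males, and without AB female 2 they were 1, 3 and 2. Under median scaling they were 0, 1 and 1, although the medians stayed negative at -0.76, -0.13 and -0.45.

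At the channel itself, *sec61a1a*, the pore through which nascent chains pass, read 13.44, 13.49 and 13.42 in AB males and 14.94, 15.51 and 15.28 in AB females (q = 0.0103). *srprb*, a subunit of the receptor for the signal recognition particle, read 11.83, 11.78 and 11.18 in AB males and 13.83, 14.09 and 13.73 in AB females (q = 0.0116). The second channel gene *sec61a1b*, the particle subunit *srp14*, and *ostc* and *krtcap2*, which belong to the glycosylating oligosaccharyltransferase, were lower in males too, with differences of -2.33 to -1.46. Among folding genes, *fkbp11*, a prolyl isomerase of the ER, read 8.57, 8.75 and 9.25 in AB males and 15.49, 15.09 and 15.27 in AB females, a difference of -6.42 ± 0.21 (SE, q = 0.000854). *xbp1*, the transcription factor that expands the ER, read 12.65, 12.64 and 12.37 in AB males and 15.37, 15.35 and 15.10 in AB females (q = 0.00169), and its differences within slides were nearly equal at -2.72, -2.72 and -2.73. *ero1a*, which drives disulfide formation, and *derl2* and *syvn1*, which clear misfolded proteins, were lower in males, with differences of -1.85 to -1.2. The chaperone *hspa5* (BiP) did not follow. It read 18.02, 17.71 and 16.24 in AB males and 17.81, 16.61 and 16.05 in AB females (q = 0.776), and its difference of 0.50 changed sign under 3 other settings.

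In vesicle transport, *mcfd2*, part of a cargo receptor for glycoproteins, read 10.73, 10.87 and 10.80 in AB males and 13.93, 13.57 and 13.82 in AB females (q = 0.00111). *kdelr3*, which returns escaped ER proteins, read 9.79, 9.98 and 8.74 in AB males and 12.43, 12.26 and 12.64 in AB females (q = 0.0213). The cargo receptors *tmed3* and *tmed4* and the vesicle protein *yipf5* were lower in males, with differences of -1.80 to -1.06. The groups did not overlap in any of these genes, which held for all 908 called probes and so adds nothing to the calls.

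Exocrine pancreas cells carry much of the same machinery, and their markers moved the same way. Of 27 measured markers 26 had lower means in males, with a median of -1.51, and 1 was called (3.7%, against 2.54% of all measured genes). *amy2a*, pancreatic amylase, read 11.32, 11.87 and 11.71 in AB males and 13.04, 13.90 and 13.41 in AB females (q = 0.0333), and *prss1*, a trypsin, read 11.50, 12.11 and 12.09 in AB males and 13.50, 15.26 and 13.39 in AB females (q = 0.123). AB female 2 was the highest. Without AB female 2 the median of the pancreas markers was -0.75, and those of the ER entry, folding and transport lists were -0.96, -0.43 and -0.61. Within slides the pancreas median was -1.12, -2.24 and -0.55 in pair order. The ER entry medians were -0.92, -0.87 and -1.02, the ER folding medians -0.47, -0.23 and -0.55, and the transport medians -0.69, -0.76 and -0.75. In WIK, where the pancreas markers had a median of 1.42, the medians of the ER entry, folding and transport lists were -0.57, 0.08 and -0.06, and in TU, with a pancreas median of 0.08, they were -0.10, 0.07 and 0.24. The part of pancreas RNA in the ER differences was not tested.

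**Figure D5:**
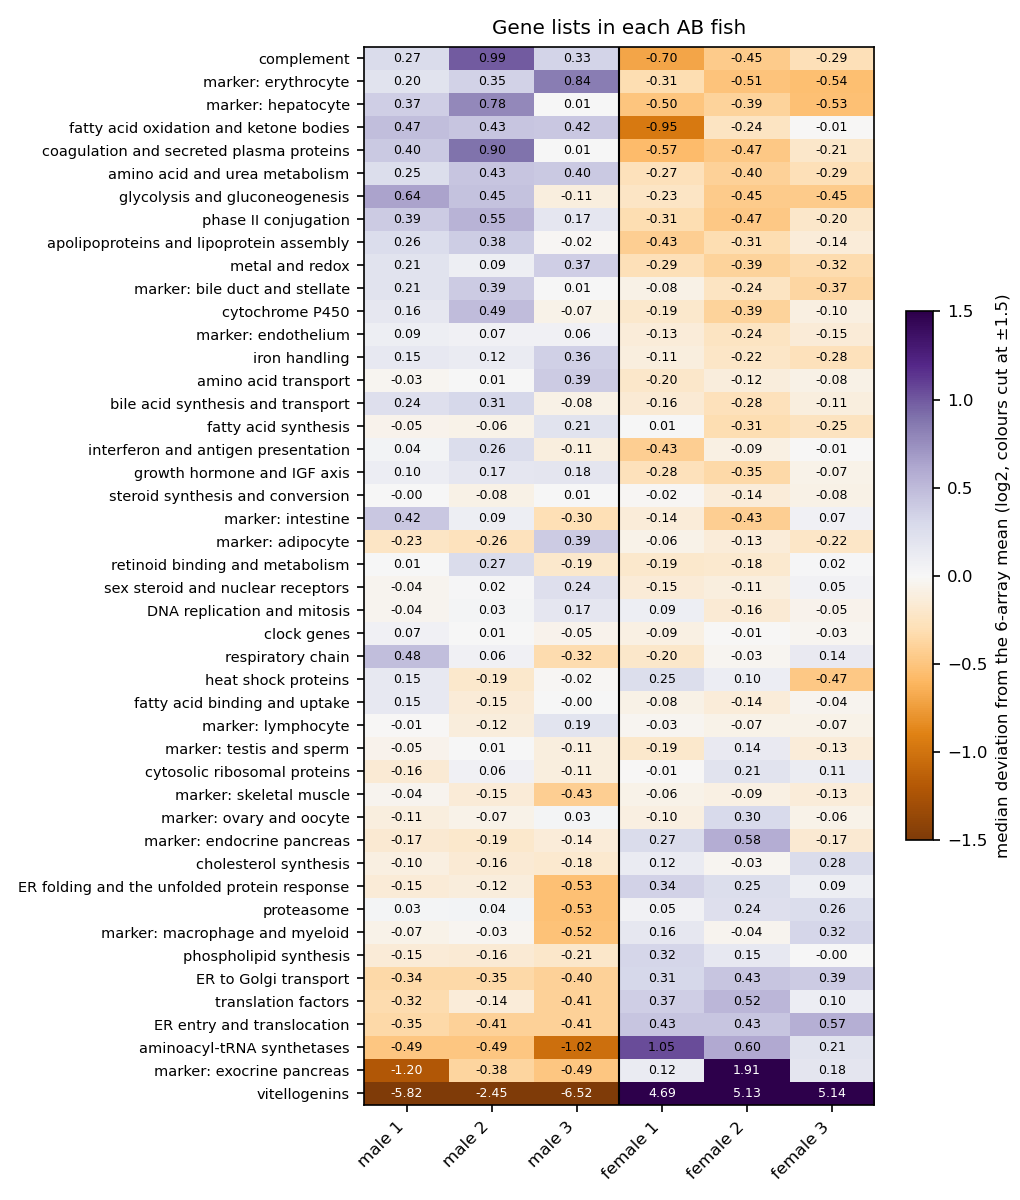
Median over each gene list of the deviation of a fish from the 6-array mean (log2), with AB males in the 3 left columns and AB females in the 3 right columns; lists run from the highest male minus female median at the top to the lowest at the bottom. ER entry is between -0.35 and -0.41 in all males and between 0.43 and 0.57 in all females, whereas the exocrine pancreas markers reach 1.91 in AB female 2 and lie at 0.12 and 0.18 in AB females 1 and 3.

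Genes that charge tRNA were lower in males as well. Of 18 measured aminoacyl-tRNA synthetases and partner proteins 17 had lower means in males and 4 were called (22.2%), with a median of -1.31. *iars1*, for isoleucine, read 11.66, 11.63 and 11.06 in AB males and 14.28, 14.46 and 13.83 in AB females (q = 0.0105). *wars1*, *kars1* and *aars1*, for tryptophan, lysine and alanine, were lower in males, with differences of -2.58 to -1.34. With slide as a block or without AB male 3 the count was 2, and without AB female 2 or under median scaling no gene of the list was called. Counts were smaller elsewhere in translation. Of 68 measured translation factors 1 was called, the elongation factor subunit *eef1db* (-1.48), with a median of -0.72, and of 88 ribosomal proteins 1 was called, with a median of -0.11. Both counts are below the 2.54% of all measured genes. Among 29 amino acid transporters 1 was called (3.45%), a share near that of all measured genes. It was *slc43a1a*, a carrier of large neutral amino acids, at 8.51, 7.96 and 8.41 in AB males and 12.58, 12.59 and 12.50 in AB females (q = 0.00103), and it kept its call with slide as a block and in every fit without 1 fish.

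Lipid synthesis split between the sexes. In fatty acid synthesis 3 of 29 measured genes were higher in males (10.3%) and 3 higher in females (10.3%). *me1*, the malic enzyme that supplies NADPH, read 12.03, 11.73 and 11.04 in AB males and 7.59, 6.84 and 7.14 in AB females (q = 0.00669). Its other probes differed by 1.93 and 2.48, and 2 of its 3 probes were called. *elovl6*, which elongates saturated fatty acids, read 9.45, 10.66 and 9.83 in AB males and 6.6, 7.0 and 6.67 in AB females (q = 0.0155). *fads2*, the desaturase of polyunsaturated fatty acids, ran the other way, at 10.94, 11.34 and 12.65 in AB males and 15.83, 16.38 and 16.30 in AB females (q = 0.0155). *elovl2*, which elongates polyunsaturated fatty acids, and *mid1ip1b*, a stimulator of acetyl-CoA carboxylase, were lower in males, with differences of -2.48 and -4.11. All 3 genes higher in males kept their calls with slide as a block and none of those higher in females did, without AB female 2 the counts were 1 toward males and 0 toward females, and without AB male 3 they were 3 and 2.

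In cholesterol synthesis 3 of 28 genes were higher in females (10.7%) and none in males. *hmgcra*, the rate-limiting reductase, read 8.44, 7.74 and 6.30 in AB males and 11.92, 11.52 and 11.80 in AB females (q = 0.0261), and *mvda* and *ebp*, later enzymes of the pathway, were lower in males, with differences of -1.73 and -1.62. None of the 3 was called with slide as a block, without AB female 2 or under median scaling, and without AB male 3 the count was 3. In phospholipid synthesis 4 of 29 genes were higher in females (13.8%) and 2 in males (6.9%), against 4 and 1 with slide as a block, 3 and 3 without AB male 3, and 3 and 1 without AB female 2. Both forms of methionine adenosyltransferase, which makes the methyl donor of phosphatidylcholine synthesis, differed in opposite directions. *mat2aa* read 7.96, 8.05 and 8.14 in AB males and 12.66, 13.29 and 12.61 in AB females (q = 0.00134), whereas *mat1a*, the liver form in mammals, read 16.56, 16.41 and 16.69 in AB males and 14.87, 15.12 and 14.96 in AB females (q = 0.00605). The acyltransferase *agpat4* and *pcyt1ab*, of the choline branch, were lower in males, with differences of -1.64 and -1.69. In fatty acid binding and uptake 2 of 28 genes were higher in males (7.14%) and 2 higher in females (7.14%), and the counts were 0 and 2 with slide as a block, 2 and 1 without AB male 3, and 1 and 1 without AB female 2. *acsl5* read 6.41, 6.02 and 6.0 in AB males and 9.91, 10.61 and 9.72 in AB females (q = 0.00559), and *slc27a2a*, a fatty acid transporter and synthetase, read 16.87, 16.80 and 16.54 in AB males and 14.81, 15.10 and 15.05 in AB females (q = 0.00726). *slc27a6*, a fatty acid transporter of the same family, was higher in males by 2.29 (q = 0.0198). *acsl4a*, an acyl-CoA synthetase like *acsl5*, read 8.74, 9.86 and 9.50 in AB males and 11.60, 12.55 and 12.99 in AB females (q = 0.0379).

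The genes highest in males relative to females did not belong to one pathway. At its most different probe *cyp2k22*, a cytochrome P450, read 13.82, 14.66 and 14.55 in AB males and 6.23, 7.10 and 6.42 in AB females (q = 0.00134), but its other probes differed by 2.24 and 2.83 and were not called. The name comes from the study's annotation. *zgc:77439* read 16.82, 16.70 and 16.03 in AB males and 11.98, 9.92 and 9.57 in AB females (q = 0.0192). Its other probes differed by 3.75 to 4.63, and 2 of its 6 probes were called. *hsd17b3*, which converts androstenedione to testosterone, read 11.71, 11.04 and 12.00 in AB males and 5.89, 6.20 and 6.06 in AB females (11.58 ± 0.49 against 6.05 ± 0.15, q = 0.00195). It kept its call with slide as a block (q = 0.0453), and *zgc:77439* did not (q = 0.0529). *timp2a*, a metalloproteinase inhibitor, *slc25a48*, a mitochondrial carrier, *abcc4*, an efflux pump, and *adgrl1.1*, an adhesion receptor, were higher in males by 4.88, 4.45, 4.30 and 4.12. Of these 4, *abcc4* had the widest spread, with 11.74, 11.21 and 13.38 in AB males and 7.97, 8.51 and 6.96 in AB females. The second *abcc4* probe differed by 2.18 and was not called. Of 3 *timp2a* probes 2 were called, and the others differed by 0.94 and 3.6. *si:dkey-71h2.2* and *sec14l7*, of a lipid-transfer family, completed the 12 genes with the largest differences. Under the slide block *sec14l7* kept its call (q = 0.0405), whereas *timp2a*, *slc25a48*, *abcc4*, *adgrl1.1* and *si:dkey-71h2.2* lost theirs, with q-values of 0.0566 to 0.137.

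Of 22 measured apolipoprotein and lipoprotein assembly genes 2 were called toward males (9.09%) and none toward females, and of 26 retinoid genes 2 toward males (7.69%) and 1 toward females (3.85%). The apolipoprotein count was 1 with slide as a block or without AB female 2 and 5 without AB male 3, while the 2 retinoid calls toward males stood at 2 in each of these fits. *vldlr*, the receptor for very low density lipoprotein, read 10.51, 10.91 and 10.90 in AB males and 6.38, 6.30 and 6.34 in AB females (q = 0.000684), although 1 of its 4 probes differed by 0.19. *apoeb*, an apolipoprotein E, read 15.35, 16.78 and 15.73 in AB males and 13.06, 12.32 and 13.19 in AB females (q = 0.0318), and it lost its call with slide as a block (q = 0.112). *rbp2b*, a relative of the cellular retinol-binding protein above, read 16.95, 16.89 and 17.05 in AB males and 13.60, 13.98 and 14.39 in AB females (q = 0.0061), and *rbp5* was higher in males by 2.31 (q = 0.00103). Plasma retinol-binding protein *rbp4* differed by 0.36 (SE 0.38), with a sign that turned under 2 other ways of scaling.

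In phase II conjugation 11 of 56 measured genes were higher in males (19.6%) and none in females, with a median of 0.57. *gstt1b*, a glutathione transferase, read 12.81, 12.51 and 12.64 in AB males and 10.12, 8.67 and 9.77 in AB females (q = 0.0233). *ugt5b4*, a glucuronosyltransferase, read 10.06, 10.50 and 11.86 in AB males and 6.91, 6.47 and 7.54 in AB females (q = 0.0312). Of the 11 genes 8 were glucuronosyltransferases, namely *ugt5b1*, *ugt5b3*, *ugt5b4*, *ugt5b6*, *ugt5a1*, *ugt5a4*, *ugt1b5* and *ugt1b7*, with differences of 1.36 to 3.84. They came in neighboring groups in the RefSeq gene order, with 4 *ugt5b* genes, 2 *ugt5a* genes and 2 *ugt1b* genes each next to one another among the measured genes, and close copies may share array signal. Another such run held 5 vitellogenins and *fam20cl*. In all, 9653 measured genes could be placed, 440 of them called, and 20 runs of 2 or more neighbors called in the same direction took in 46. Apart from the vitellogenin and *ugt5b* runs, each run held 2 genes. How many runs would arise by chance was not computed, so the count does not show that called genes cluster. In the conjugation list the count with slide as a block was 3, under median scaling 4, without AB female 2 it was 2 and without AB male 3 it was 12.

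Of 55 measured cytochrome P450 genes 6 were higher in males (10.9%) and 1 higher in females (1.82%). *cyp2n13* read 14.06, 13.82 and 13.04 in AB males and 11.32, 11.23 and 11.85 in AB females (q = 0.0349). *cyp1a*, the enzyme induced through the aryl hydrocarbon receptor, read 15.32, 15.51 and 15.52 in AB males and 14.29, 14.20 and 14.59 in AB females (q = 0.0205), with its other probes down to 0.13. *cyp2k6* was lower in males and below background in all of them, with 8.29, 8.37 and 9.87 in AB females. At the brightest probes no P450 gene was called with slide as a block or without AB female 2. The counts were 6 toward males and 0 toward females when AB male 3 was left out. The most different *cyp2k22* probe kept its call with slide as a block (q = 0.0284) and in every fit without 1 fish. *cyp8b1.2* and *hsd3b7*, of bile acid synthesis, were higher in males by 1.42 and 1.80, whereas *cyp7a1*, the rate-limiting enzyme of the pathway, did not pass the test. It read 7.45, 7.19 and 9.21 in AB males and 12.69, 10.65 and 9.82 in AB females (q = 0.162), and the groups did not overlap.

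Antioxidant enzymes were mostly higher in males where they were called. In the metal and redox list 6 of 37 genes were higher in males (16.2%) and 1 in females (2.7%). *sod3a*, an extracellular superoxide dismutase, read 13.14, 12.74 and 13.18 in AB males and 10.45, 9.09 and 10.34 in AB females (q = 0.0264). *txnb*, a thioredoxin, read 12.87, 12.40 and 12.63 in AB males and 10.24, 9.76 and 9.45 in AB females (q = 0.00948). *sod1*, the glutathione peroxidases *gpx1a* and *gpx4a* and *cat*, catalase, were higher in males by 1.03 to 2.07, with 1 female value of *cat* missing as a spot outlier. The exception was *prdx4*, a peroxiredoxin of the ER, which was lower in males (-1.87, q = 0.0417). Under median scaling no gene of the list was called, and with slide as a block or without AB female 2 the count on the male side was 1, and without AB male 3 it was 5.

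In glycolysis and gluconeogenesis 6 of 46 genes were higher in males (13%) and none in females, with a median of 0.74. *pcxb*, a pyruvate carboxylase, read 11.12, 11.08 and 10.25 in AB males and 7.73, 7.71 and 7.47 in AB females (q = 0.00914). *pck2*, the mitochondrial form of phosphoenolpyruvate carboxykinase, read 16.43, 16.03 and 16.47 in AB males and 14.40, 14.56 and 14.30 in AB females (q = 0.00858). *fbp1b* and *g6pc1a.1*, of the last steps of gluconeogenesis, were higher in males by 1.93 and 2.94. *pck1* differed by 0.60 (SE 1.18), with the AB male 3 value above all the others and the sign turned to -0.42 without it. Without AB male 3, 11 of the 46 genes were called higher in males, with slide as a block 1, without AB female 2 it was 2, and under median scaling none.

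Amino acid breakdown and fatty acid oxidation had medians of 0.79 and 0.88, with 4 of 45 (8.89%) and 2 of 45 genes (4.44%) called higher in males. *glud1b*, glutamate dehydrogenase, read 14.28, 14.03 and 14.65 in AB males and 12.82, 12.73 and 12.73 in AB females (q = 0.0166). *acat1*, a mitochondrial thiolase of ketone body metabolism, was higher in males by 1.63 (q = 0.00971) and *ucp1*, a mitochondrial uncoupling protein, by 1.97 (q = 0.0234). In fatty acid oxidation AB female 1 was the lowest fish, with a median deviation of -0.95, and AB females 2 and 3 were at -0.24 and -0.01. Without AB female 2 neither list had a call, and with slide as a block the counts were 0 and 1. Without AB male 3 they were 5 and 4, with 1 fatty acid oxidation gene called toward females.

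Of 29 complement genes 4 were called toward males (13.8%), with a median of 1.06, and of 36 coagulation and other secreted plasma protein genes 4 were called toward males (11.1%), with a median of 0.83. *c4*, a complement component, read 10.41, 11.52 and 10.12 in AB males and 7.55, 8.32 and 7.39 in AB females (q = 0.0381). *ahsg2*, a fetuin, read 16.85, 16.45 and 16.79 in AB males and 14.64, 14.27 and 13.63 in AB females (q = 0.0186). *serpinc1*, antithrombin, was higher in males by 1.69 (q = 0.0304). Each list had 1 call with slide as a block, without AB female 2 the counts were 0 and 1, and without AB male 3 the complement list had 3 calls toward males and 1 toward females and the coagulation list had 11 toward males. The female call was *cfh*, complement factor H, which read 5.92, 6.02 and 12.45 in AB males and 11.78, 11.67 and 13.52 in AB females and was not called over all 6 fish (q = 0.345). AB male 2 was the highest fish in both lists, at 0.99 and 0.90. The hepatocyte markers had no call and a median of 0.90 over all 6 fish, and without AB male 3, 5 of 13 were called higher in males with a median of 1.07. In that fit 3.0% of all measured genes were called toward males. The hepatocyte median over all 6 fish was 0.30 under median scaling and -0.09 under the scanner's processed signal, whereas the complement median was 1.15 and 0.96 under these. Erythrocyte markers had 3 of 20 genes called higher in males, among them the globin *ba1l* at 16.40, 16.72 and 16.93 in AB males and 15.13, 14.46 and 14.27 in AB females (q = 0.0257). The erythrocyte count was 4 without AB male 3, 1 without AB female 2 and 0 with slide as a block. The part of either in the male-high lists was not tested.

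Several lists gave no call over all 6 fish. They were the growth hormone and IGF axis (29 measured genes), the proteasome (54), DNA replication and mitosis (53), heat shock proteins (37), clock genes (33) and interferon and antigen presentation (28). Without AB male 3 the growth hormone and IGF axis had 2 calls toward males and DNA replication had 1 in each direction, and without AB female 2 the growth hormone and IGF axis had 1 toward females. *igf1*, the liver's growth hormone target, read 11.49, 9.59 and 13.01 in AB males and 9.49, 9.28 and 8.82 in AB females (q = 0.28), and every male lay above every female although the males were far apart. *igfbp1a* was at 13.48 in AB male 2 and at 9.50 and 9.85 in AB males 1 and 3, against 9.15, 9.43 and 10.85 in AB females. Among clock genes the smallest p-values belonged to *nfil3* (-1.0, q = 0.0569) and *nr1d2a* (-1.94, q = 0.0689), both transcriptional repressors. The respiratory chain had 1 of 89 genes called (1.12%), *atp5pf*, a subunit of ATP synthase.

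Males differed more among themselves than females did in most lists. The median SD over measured genes was 0.29 in males and 0.24 in females. The gap was widest in the vitellogenins, at 2.12 and 0.23, and it was 0.60 and 0.34 in coagulation genes, 0.61 and 0.33 in glycolysis and gluconeogenesis and 0.40 and 0.19 in ER entry. Some lists ran the other way. Exocrine pancreas markers were at 0.51 in males and 1.05 in females, aminoacyl-tRNA synthetases at 0.38 and 0.53 and fatty acid oxidation at 0.36 and 0.46.

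The sex difference of AB was set against those of WIK and TU in 1 fit of all 18 arrays, which tests the difference between strains itself. At a q-value of at most 0.05 it differed from WIK at 212 probes (0.486%) and from TU at 171 probes (0.392%). In the same fit the sex difference itself reached this q-value at 637 probes in WIK (1.46%) and at 26 in TU (0.0596%). Of 175 named genes 6 differed from WIK and 14 from TU, and 4 of the genes that differed from WIK belong to the secretory lists. Most of the named genes were chosen for their difference in AB, a choice that favors a larger difference in AB than in the other strains. *kdelr3* differed between the sexes by -2.94 in AB, against 1.24 in WIK (q = 0.00146 for the difference) and 0.24 in TU (q = 0.00972). *ero1a* differed by -1.44 in AB, against 0.23 in WIK (q = 6.96e-05) and 0.11 in TU (q = 0.000174). *hmgcra* differed by -4.25 in AB, against -4.45 in WIK (q = 0.978) and 3.15 in TU (q = 0.0128), so AB was near WIK here. No difference between strains was called for *vtg1* (-10.20 in AB, -9.82 in WIK and -6.77 in TU) or *hsd17b3* (5.53 in AB, 5.06 in WIK and 2.26 in TU). Strain and time of day of collection cannot be told apart in these comparisons.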

How the data were processed

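Liver RNA of single fish was labeled with Cy3 and hybridized to Agilent 4x44K zebrafish arrays. The deposited scanner files hold spot intensity values that, per the file headers, were extracted by the authors with Feature Extraction 11.0.1.1. Median spot intensities were background-corrected with normexp (offset 50) on the local background, quantile-normalized over the 18 arrays and averaged by probe on the log2 scale with limma 3.58.1 in R 4.3.3, leaving out control spots and spots flagged as outliers. The deposited log2 table of the authors, made with limma from the same arrays, holds 1 value for each accession, has array medians of 6.73 to 6.82 and correlates at 0.992 to 0.998 with the mean of an accession's probes, and was used as an alternative only. It held 0 columns without a sample. Depth does not apply to arrays, and precision is limited by 3 fish in a group.

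AB males and AB females were compared with limma (empirical Bayes, 6 arrays, Benjamini-Hochberg over 43603 probes). Names came from a RefSeq gene table matched by accession (26043 probes) or from the study's probe annotation (262 probes), 26305 in all for 13568 genes. Gene order was taken from the same RefSeq table, and probe positions were not used here, so that calls were not counted by chromosome. Gene lists, members and tests were chosen with earlier results of these data known. Named genes were the 12 with the largest change in each direction, called genes of each list (at most 6), the brightest markers and defining genes of the biology; others are said to be chosen after their values were seen, or are members given with their list. The fit was tested on simulated data.

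Same-numbered fish shared a slide. The correlation of their deviations from the group means was 0.25, 0.012 and -0.066 for the 3 pairs, and up to 0.228 for fish of different slides, so slide entered as a block in a second fit only. Alternatives changed the background correction, normalization, filter, outlier flags, variance prior, samples, thresholds, probe rule and values.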

Additional observations from a re-analysis of the deposited data

Results flagged for a closer look

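The following results were picked out because the sex difference in AB differed from that in another strain by a test of the difference itself (limma, 18 arrays, adjusted over all probes). Each value is the AB difference minus that of the other strain, on the log2 scale, and strain and time of day of collection cannot be told apart. Most of these genes were named for their difference in AB, which favors a larger difference there. Among genes higher in AB males, the excess over TU was 3.67 for *timp2a* (q = 0.0386), 3.77 for *vldlr* (q = 0.0111), 3.80 for *grik1a* (q = 0.0101) and 2.69 for *sod3a* (q = 0.0323). For *sod3a* it was 2.94 over WIK (q = 0.015). *timp2a*, *vldlr* and *grik1a* were higher in males in WIK too, by 1.79, 2.18 and 3.01. Their differences between AB and WIK did not pass (q = 0.0756, 0.112 and 0.572).

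Among secretory genes lower in AB males, *fkbp11* had -5.27 against TU (q = 0.012) and -4.16 against WIK (q = 0.0376). For *kdelr3* the values were -3.18 against TU (q = 0.00972) and -4.18 against WIK (q = 0.00146). For *ero1a* they were -1.55 against TU (q = 0.000174) and -1.66 against WIK (q = 6.96e-05), and for *tmed4* -1.54 against TU (q = 0.0152) and -1.64 against WIK (q = 0.00916). *mcfd2* had -2.63 (q = 0.0115) and *derl2* had -1.38 (q = 0.0323), both against TU. Neither passed against WIK (q = 0.696 and 0.0906), where the sex differences were -2.38 and -0.14.

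Among lipid genes lower in AB males, the values against TU were -7.41 for *hmgcra* (q = 0.0128), -4.15 for *fads2* (q = 0.0225), -4.02 for *mid1ip1b* (q = 0.00915) and -1.93 for *pcyt1ab* (q = 0.0111). For *pcyt1ab* the value against WIK was -1.76 (q = 0.015). In TU *hmgcra* was higher in males by 3.15. In WIK the sex differences of *hmgcra*, *fads2* and *mid1ip1b* were -4.45, -1.47 and -2.74, and none differed from AB by the test (q = 0.978, 0.0824 and 0.42).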

How the results depend on the processing

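The number of called probes (908; 395 toward males and 513 toward females) depended on the settings. Under a replicate block for slide it was 314 (110 and 204), in 1 fit of all 18 arrays 1685 (797 and 888), with a normexp offset of 16 it was 1382 (639 and 743), with probes well above background on 3 or more arrays 1374 (637 and 737), under median scaling 567 (366 and 201), for the authors' deposited values 457 (214 and 243) and at 4-fold 346 (125 and 221). Leaving out 1 fish gave 192 to 1197 probes, 57 to 616 toward males and 135 to 581 toward females. Fish of 1 slide did not all deviate together. The block, which leaves fewer degrees of freedom for the error, left 37 of 119 called named genes called. In every fit without 1 fish 25 were called. The median difference of all probes was -0.001, against -0.092 under the processed signal and -0.086 under median scaling. Across settings, log2 differences of named genes kept direction and call status in 2707 cases, which include genes called in neither fit. They lost the call in 715, gained it in 37 and turned in 41, the last only for genes not called.

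The turned values were, under the processed signal, -0.33 for *fabp10a*, -0.42 for *apoa1b*, -0.09 for *serpina1*, 0.35 for *ins*, -0.04 for *anxa4*, -0.69 for *rbp4* and -0.39 for *hspa5*. Under median scaling they were -0.003 for *fabp10a*, -0.11 for *apoa1b*, 0.10 for *ins*, 0.10 for *esr2a*, -0.35 for *rbp4* and -0.06 for *hspa5*. Cyclic loess gave 0.01 for *ins* and 0.06 for *apoa4b.1*. The deposited table gave 0.43 for *nme2b.2*, -0.12 for *lpla*, 0.11 for *esr2a* and -0.24 for *hspa5*. Over fits without 1 fish the ranges were -0.44 to 0.42 for *dmrt1*, -0.41 to 0.27 for *ins*, -0.45 to 0.18 for *apoa4b.1*, -1.61 to 0.95 for *fabp2*, -0.45 to 1.80 for *acta1a*, -1.40 to 0.08 for *nme2b.2*, -0.75 to 0.10 for *c1qc*, -0.23 to 0.53 for *anxa4*, -0.17 to 0.66 for *lpla*, -0.42 to 1.28 for *pck1*, -0.38 to 0.03 for *esr2a*, -0.10 to 1.15 for *ar* and -0.14 to 1.85 for *igfbp1a*. The causes were not tested. Signal limits what could be seen, since 12663 probes were above background on no AB array.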
